A study of Mus musculus with 17 samples.

Results

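DNA topoisomerases are the enzymes on which doxorubicin (DX), an anthracycline chemotherapeutic, acts. Their transcripts were followed in MCA205 tumours, a transplantable mouse fibrosarcoma grown in wild-type C57bl/6 mice, after DX or PBS had been injected into the palpable tumour. The set held 7 genes, Top1, Top2a, Top2b, Top3a, Top3b, Tdp1 and Tdp2, taken by their annotated symbol from the 19057 genes with a symbol on the Illumina mouse BeadChip. They were represented by 13 probes. Of these, 10 probes for 6 of the 7 genes were detected (detection p-value under 0.01) on no fewer than 2 of the 17 arrays and were tested, as were 17674 probes in all.

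Total RNA of the whole tumour was hybridised, 1 array per sample. On day 2 there were 2 tumours given DX and 3 given PBS. Day 7 had 3 responders to DX, 3 non-responders and 3 tumours given PBS, and day 10 had 3 responders to DX. Responders and non-responders were told apart by the submitters from the shrinkage of the tumour, so that division is not an assigned treatment. All day 10 samples were DX responders, so day 10 was set against day 7 responders and against no PBS group. In whole tumours, fewer cells of a type and less RNA per cell cannot be told apart. The labels do not say that each array came from its own animal, and the p-values measure the spread between these samples.

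Topoisomerases cut DNA, let strands pass or turn, and reseal the cut, and so relieve the twist that copying and reading of DNA build up. Type I enzymes such as Top1 cut a lone strand, while type II enzymes, Top2a and Top2b, cut both strands and pass another duplex through the gap. DX intercalates into DNA and holds type II enzymes at the cut, so that the enzyme itself becomes the lesion. Tdp1 and Tdp2 are phosphodiesterases that clear the protein remnant of a trapped type I or type II enzyme from the DNA end. The amount of Top2a in a cell is a classical determinant of its sensitivity to such poisons in cell culture.

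Between 13728 and 15568 of 45281 probes were detected per array. Replicates of a group correlated with r between 0.963 and 0.989. Genes of a list for fibroblasts and sarcoma matrix were all measured (8 of 8), with a mean log2 signal between 10.03 and 10.83 on the 17 arrays. Skeletal muscle genes stood far above the other samples on 1 array of day 7 responders (replicate 3, mean log2 signal 11.56) and 1 of day 10 responders (replicate 3, 11.22), against 4.78 to 5.05 in day 7 PBS tumours. The fewest probes, 14004 and 13728, were detected on day 7 PBS replicates 2 and 3.

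No topoisomerase or Tdp gene passed the test in any of the 8 comparisons (0 of 6 genes and 0 of 10 probes at an adjusted p under 0.05). Differences were tested in 1 limma fit of the 6 group means across all 17674 probes, with Benjamini-Hochberg adjustment within each comparison. Over all probes 0.571% were called for DX against PBS on day 2. On day 7 the share was 0.43% for responders against PBS, 0.102% for non-responders against PBS and 0.311% for all DX tumours against PBS. It was 0% for responders against non-responders and 0.00566% for day 10 against day 7 responders. It was 0.56% for day 7 against day 2 PBS tumours and 0.209% for the DX effect of day 7 minus that of day 2. At such shares 0 of 10 is near the background and is no result about the members. At an unadjusted p under 0.05 the members counted 0, 3, 1, 4, 1, 0, 1 and 1 of 10 in these comparisons, in the order just given. The 3 of 10 for responders against PBS, both well-detected Top1 probes and the second Top2a probe, compare with 13.5% of all probes. The 4 of 10 for all DX tumours, which add Top3a, compare with 14.3%, and the 0 of 10 on day 2 with 6.07%. The share of all probes was 10.9% for non-responders against PBS, 5.65% for responders against non-responders, 3.73% for day 10 against day 7 responders, 14.3% for PBS tumours and 8.02% for the difference between the DX effects.

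**Figure D1:**
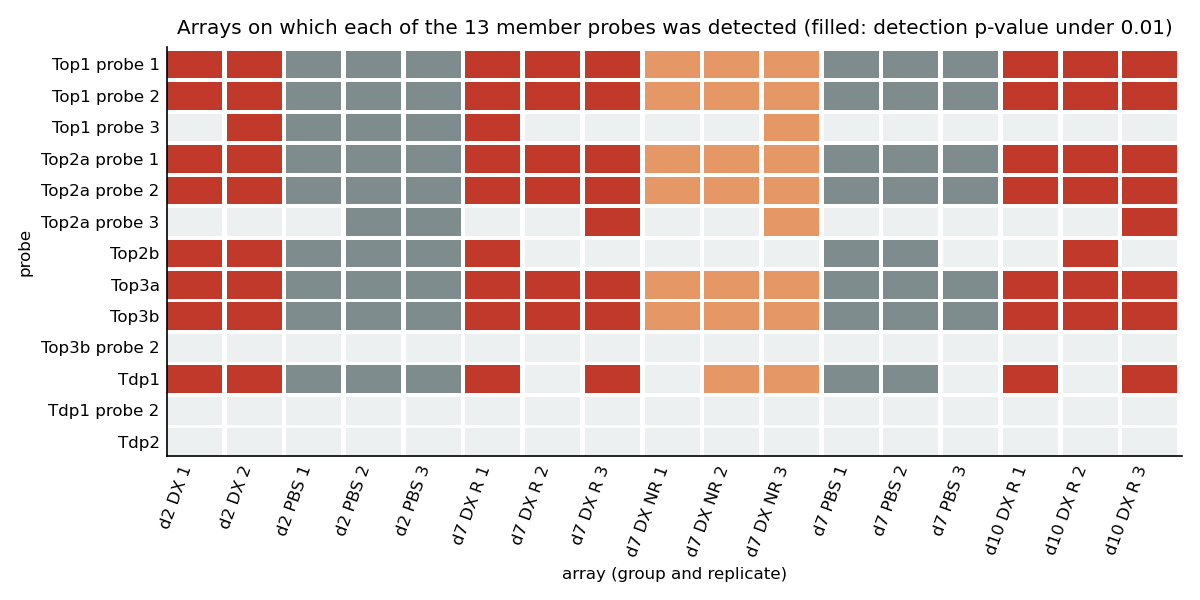
Arrays (columns, by group and replicate) on which each of the 13 member probes (rows) was detected, coloured by group where the detection p-value was under 0.01 and pale otherwise. Tdp2 is empty on all 17 arrays, and Top2b is filled on all 5 day 2 arrays and on 0 of 3 non-responder arrays.

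Top2a, the type II enzyme of dividing cells that separates sister chromatids, and Top2b, its paralogue that is also present in resting cells, differ in the DNA before their start sites. Both windows are shown because Top2a is a classical cell cycle gene and the mitosis genes are set beside it further on. RefSeq promoter windows of 300 bases (GRCm38.p6) around the start of transcription were found for 5 of the 7 genes: Top1, Top2a, Top2b, Top3b and Tdp1. Capitals mark CCAAT, the letters bound by NF-Y, and TTTGAA, the letters of the cell cycle genes homology region, searched on both strands (ATTGG and TTCAAA on the other strand). The Top2a window lies at chr11:99024140-99024439 on the minus strand and the Top2b window at chr14:16364956-16365255 on the plus strand.
Top2a: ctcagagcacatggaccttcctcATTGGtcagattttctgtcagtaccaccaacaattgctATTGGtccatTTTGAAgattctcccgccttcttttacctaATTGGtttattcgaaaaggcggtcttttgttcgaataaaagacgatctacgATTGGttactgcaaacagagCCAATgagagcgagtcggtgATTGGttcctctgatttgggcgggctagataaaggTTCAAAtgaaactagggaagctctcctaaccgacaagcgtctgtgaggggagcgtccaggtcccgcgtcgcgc
Top2b: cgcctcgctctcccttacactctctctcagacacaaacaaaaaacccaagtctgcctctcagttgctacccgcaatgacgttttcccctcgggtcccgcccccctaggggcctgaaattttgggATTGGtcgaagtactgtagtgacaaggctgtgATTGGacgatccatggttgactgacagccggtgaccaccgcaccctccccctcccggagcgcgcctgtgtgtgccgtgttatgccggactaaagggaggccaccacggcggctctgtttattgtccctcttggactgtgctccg

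The Top2a window held 6 CCAAT matches and 2 TTTGAA matches, and no 2 of them overlapped. The Top2b window held 2 CCAAT matches and 0 TTTGAA matches. Among 32851 promoter windows of the same length, 37.4% held CCAAT, 11.7% held it at least 2 times, and 0.0791% held it at least 6 times. TTTGAA was in 17.9% of the windows. The Top1 window held neither motif, that of Top3b 1 CCAAT match, and that of Tdp1 1 TTTGAA match. A match of letters is a description and not a shown site.

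The brightest Top2a probe (probe 1 in the plots), ILMN_2830661, was detected on all 17 arrays. Its log2 signal lay between 10.10 and 11.12 on single arrays, while its group means lay between 10.48 and 10.85. On day 2 its log2 signal was 10.96 and 10.54 in DX tumours, against 11.00, 10.67 and 10.89 in PBS tumours. On day 7 it was 10.62, 10.24 and 10.70 in responders, 11.03, 10.10 and 10.32 in non-responders, and 10.32, 10.46 and 11.12 in PBS tumours. The groups overlapped in each of these comparisons, and day 10 responders, at 10.47, 10.83 and 10.68, lay in the same range. The fitted difference was -0.10 on day 2 (95% interval -0.62 to 0.41), -0.12 for responders against PBS (-0.58 to 0.34) and -0.15 for non-responders against PBS (-0.61 to 0.30). These intervals do not show that the levels were equal. Ordered by mean, day 2 PBS came first at 10.85 and day 7 non-responders last at 10.48, and no 2 neighbours in the order differed by more than the pooled SD of 0.33.

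The second Top2a probe (probe 2), ILMN_1255436, also detected on all 17 arrays, gave another picture. In day 7 responders its log2 signal was 8.42, 8.39 and 8.33, in non-responders 7.59, 8.15 and 8.04, and in PBS tumours 7.95, 7.82 and 7.48. Each responder lay above each non-responder and each PBS tumour, while non-responders and PBS tumours overlapped. Of all probes 18.4% did not overlap between responders and PBS tumours and 10.8% between responders and non-responders, and of the 10 member probes 2 and 1 did not. The difference was 0.63 ± 0.17 (SE) for responders against PBS (adjusted p = 0.115 in limma), 0.18 ± 0.17 for non-responders against PBS (adjusted p = 0.753 in limma) and 0.45 ± 0.17 for responders against non-responders (adjusted p = 0.829 in limma). None passed the threshold. With BeadChip as a block the difference of responders from PBS was 0.48, and within the only BeadChip that held both groups, with 1 array each, it was 0.47.

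On day 2 the second Top2a probe read 8.26 and 8.09 in DX tumours, against 8.67, 8.20 and 8.60 in PBS tumours. The groups overlapped, with a difference of -0.31 ± 0.19 (adjusted p = 0.983 in limma). Among PBS tumours each day 7 sample lay below each day 2 sample, a separation seen for 22% of all probes and 4 of 10 member probes. The difference of -0.74 ± 0.17 came closest of all member values to the threshold (adjusted p = 0.0577 in limma). It passed in 5 alternative fits, among them the fit with array weights (-0.74, adjusted p = 0.02). Without day 7 PBS replicates 2 and 3 it was -0.54 with an adjusted p of 0.816 in limma. The DX effect of day 7 minus that of day 2 was 0.72 ± 0.24 (adjusted p = 0.393 in limma). Day 10 responders, at 8.43, 8.09 and 8.31, overlapped day 7 responders.

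The 2 Top2a probes did not follow each other across arrays (Pearson r = -0.117, Spearman rho = 0.002, n = 17 arrays, a description). For responders against PBS their differences had opposite signs in the fit of all arrays, but the sign of the brightest probe was not stable. Its difference was 0.19 with BeadChip as a block, 0.30 within the BeadChip that held 1 array of each group, and 0.19 without day 7 PBS replicates 2 and 3. The second probe gave 0.48, 0.47 and 0.43 there, so both were positive in these settings. The third Top2a probe, ILMN_1242235, was detected on 5 of 17 arrays, with log2 signals between 4.52 and 5.50. On day 2 it was detected on 0 of 2 DX arrays and 2 of 3 PBS arrays, and on day 7 on 1 of 3 responder, 1 of 3 non-responder and 0 of 3 PBS arrays. No fold could be given for it. By annotation the Top2a probes were each assigned to a different transcript record, while the Top1 probes were assigned to the same one. The third Top1 probe, detected on 6 of 17 arrays, correlated with the brightest by r = 0.238 and with the second by r = 0.077. The part of the transcript record in how probes follow each other was not tested. Which transcript parts the probes match was not analysed here.

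**Figure D2:**
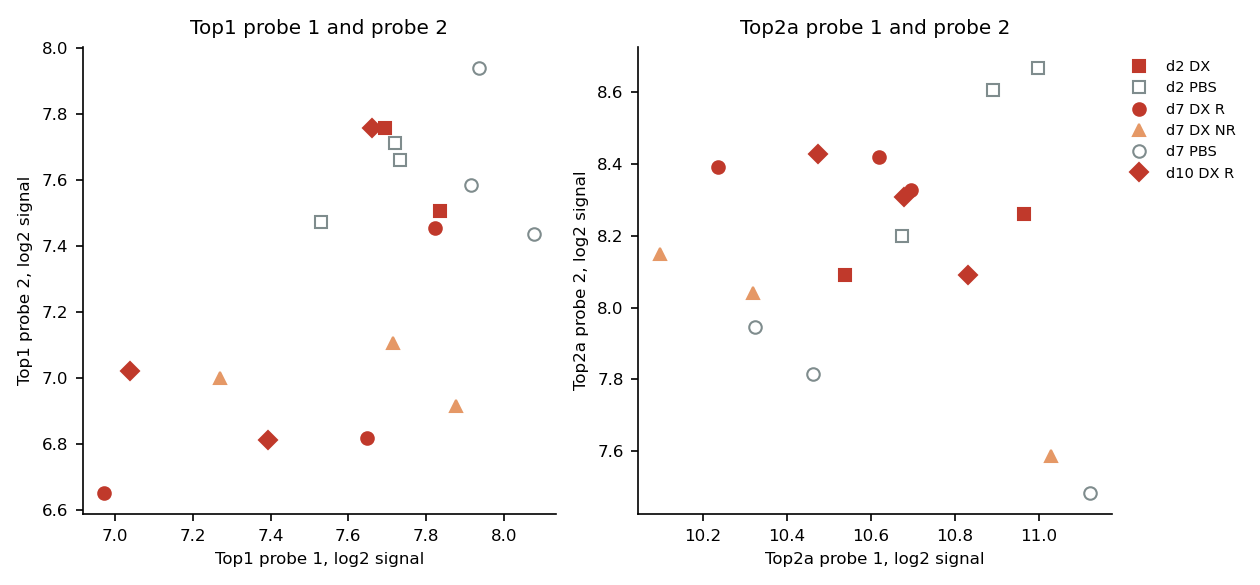
Log2 signal of the second (vertical axis, probe 2) against the brightest probe (horizontal axis, probe 1) of Top1 (left) and Top2a (right), 1 point per array, with DX filled and PBS open. Points of Top1 rise together (r = 0.609), while those of Top2a do not (r = -0.117). d2, d7 and d10 are the days, R responders and NR non-responders.

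Top2b was near the limit of detection, and its probe was detected less on the later arrays. It was detected on 2 of 2 DX and 3 of 3 PBS arrays of day 2, on 1 of 3 responder, 0 of 3 non-responder and 2 of 3 PBS arrays of day 7, and on 1 of 3 arrays of day 10. On day 2 its log2 signal was 5.62 and 6.51 in DX tumours, against 6.11, 6.04 and 5.81 in PBS tumours. The 2 DX values bracketed the 3 PBS values, and the difference was 0.08 ± 0.38 (adjusted p = 1 in limma). On day 7 it was 5.94, 5.01 and 4.81 in responders, 4.61, 5.11 and 5.30 in non-responders and 5.59, 6.16 and 5.26 in PBS tumours. The day 10 responders read 4.86, 5.71 and 4.65. The groups overlapped, and day 7 responders differed from PBS by -0.42 ± 0.34 (adjusted p = 0.615 in limma). In non-responders the probe was not well above background on any array, and day 7 PBS replicate 3 was not detected either. No fold or bound is therefore read for non-responders against PBS. The measured means were 5.01 in non-responders and 5.67 in PBS tumours (adjusted p = 0.488 in limma). The interval of the fitted difference, -1.37 to 0.05, included 0. The lowest signal among detected probes was itself higher on day 7 PBS arrays (5.30 to 5.43) than on day 2 PBS arrays (5.12 to 5.17), and the part of this limit in the detection counts was not tested.

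Whether the paralogues moved unequally was asked with the difference of their brightest probes on each array, Top2a minus Top2b. On day 2, where Top2b was detected on all 5 arrays, DX tumours differed from PBS in this quantity by -0.18 (two-sided exact permutation p = 0.8). Day 7 responders differed from PBS by 0.30 (two-sided exact permutation p = 0.7), with Top2b detected on 1 of 3 and 2 of 3 arrays. For the comparisons that hold non-responders no value is read, since Top2b was not well above background on any of their arrays. Adjusted over all 5 comparisons computed, these exact tests gave 0.8. The smallest p that 2 against 3 or 3 against 3 arrays can give is 0.1. The SD of the quantity was 0.60 in responders and 0.81 in PBS tumours of day 7, larger than their difference. Single arrays turned some signs: without DX replicate 2 the day 2 value was 0.48, and without responder replicate 3 or PBS replicate 2 the responder value was -0.0147 or -0.0375. Since Top2b was below detection on several of these arrays, part of the spread lies at its limit.

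**Figure D3:**
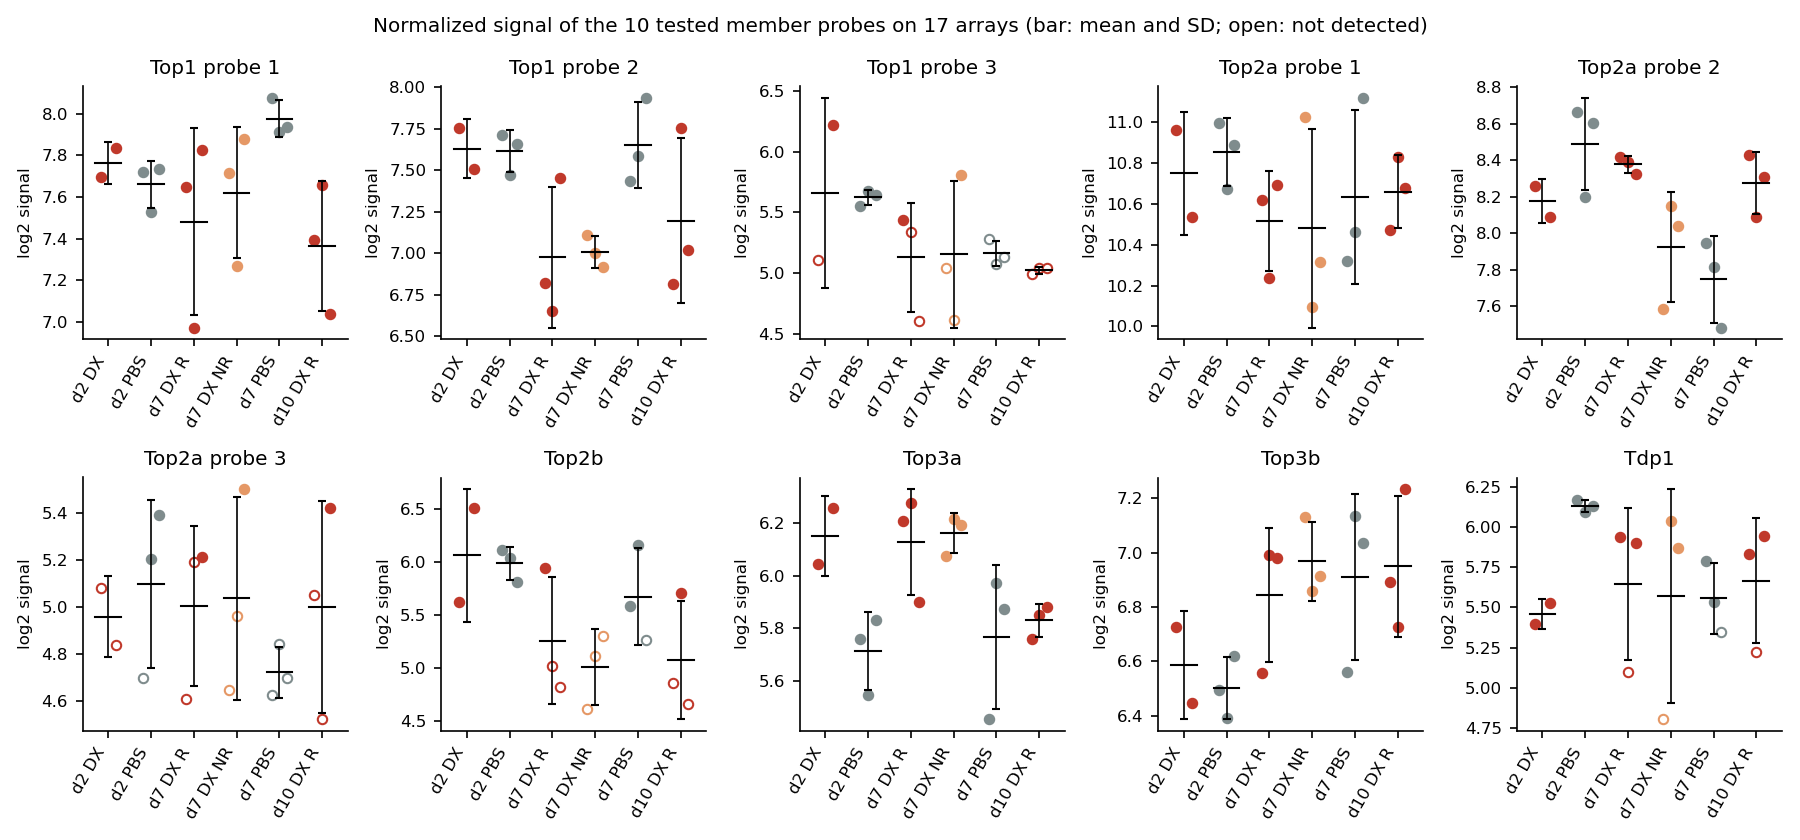
Normalized log2 signal of the 10 tested member probes in the 6 groups, 1 point per array, open where the probe was not detected, with mean and SD as bars. On day 7 the brightest Top1 probe is below the PBS arrays in all 6 DX arrays (6.97 to 7.88 against 7.92 to 8.08), and the second Top2a probe is highest in responders.

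Top1, the type I enzyme that relaxes DNA ahead of polymerases and the target of camptothecins, read lower in DX tumours than in PBS tumours on day 7 by both of its well-detected probes, without passing the threshold. The brightest probe, ILMN_1232251, gave log2 signals of 7.65, 6.97 and 7.82 in responders, 7.71, 7.27 and 7.88 in non-responders and 8.08, 7.92 and 7.94 in PBS tumours. All 6 DX arrays lay below all 3 PBS arrays. The difference was -0.50 ± 0.21 for responders (adjusted p = 0.313 in limma), -0.36 ± 0.21 for non-responders (adjusted p = 0.57 in limma) and -0.43 ± 0.18 for all DX tumours (adjusted p = 0.293 in limma). Of all probes 6.25% likewise did not overlap between the 6 DX and 3 PBS arrays, and 1 of the 10 member probes did not.

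The second Top1 probe, ILMN_2521065, gave 6.82, 6.65 and 7.46 in responders, 7.11, 7.00 and 6.92 in non-responders, and 7.44, 7.58 and 7.94 in PBS tumours. Responder replicate 3 reached the PBS range, and the non-responders did not. The difference was -0.68 ± 0.23 for responders (adjusted p = 0.211 in limma), -0.65 ± 0.23 for non-responders (adjusted p = 0.311 in limma) and -0.66 ± 0.20 for all DX tumours (adjusted p = 0.14 in limma). Responders and non-responders differed by -0.03 (95% interval -0.52 to 0.45) by this probe and by -0.14 (-0.58 to 0.30) by the brightest.

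On day 2 Top1 showed no such gap. The brightest probe read 7.69 and 7.84 in DX tumours, against 7.72, 7.53 and 7.73 in PBS tumours, and the second probe 7.76 and 7.51 in DX tumours, against 7.71, 7.47 and 7.66 in PBS tumours. The groups overlapped, with differences of 0.10 (95% interval -0.39 to 0.60) and 0.01 (-0.53 to 0.56). Among PBS tumours the brightest probe read higher on day 7 than on day 2 without overlap, by 0.32 ± 0.21 (adjusted p = 0.534 in limma). Of all probes 22% did not overlap there. By the second probe those groups overlapped, with a difference of 0.04 ± 0.23. The mean of the brightest probe was 7.66 in day 2 PBS tumours, 7.98 in day 7 PBS tumours, 7.62 in non-responders and 7.48 in responders. The DX effect of day 7 minus that of day 2 was -0.53 ± 0.30 for the brightest probe (adjusted p = 0.685 in limma) and -0.68 ± 0.33 for the second (adjusted p = 0.624 in limma), so a difference between the days was not established. Day 10 responders read 7.39, 7.66 and 7.04 by the brightest and 6.81, 7.76 and 7.02 by the second probe, which overlapped day 7 responders.

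The size of the Top1 difference moved with the BeadChip. With BeadChip as a block it was -0.24 for the brightest and -0.58 for the second probe over all DX tumours of day 7. Within the BeadChip that held 2 non-responders and 2 PBS tumours it was -0.13 and -0.75. Within the one that held 1 responder and 1 PBS tumour it was -0.43 and -0.62. Without the muscle-rich arrays the responder difference was -0.67 by the brightest and -0.92 by the second probe, so it was larger without them. The 2 probes correlated over the 17 arrays with r = 0.609 (Spearman rho = 0.49, a description). The third Top1 probe, ILMN_1215049, was detected on 6 of 17 arrays, 4 of them on day 2, and on 0 of 3 day 7 PBS arrays, so it gives no fold for DX against PBS on day 7. On day 2 it was detected on 3 of 3 PBS arrays. By the means, its signal there was at least 1.20-fold that of day 7 PBS arrays (measured means 5.16 on day 7 and 5.63 on day 2). The difference did not pass the threshold (adjusted p = 0.52 in limma), and its interval, -1.10 to 0.17, included 0. Between the same PBS groups the brightest Top1 probe went the other way, by 0.32, and the second differed by 0.04. No direction is therefore read for Top1 between PBS tumours of the 2 days.

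**Figure D4:**
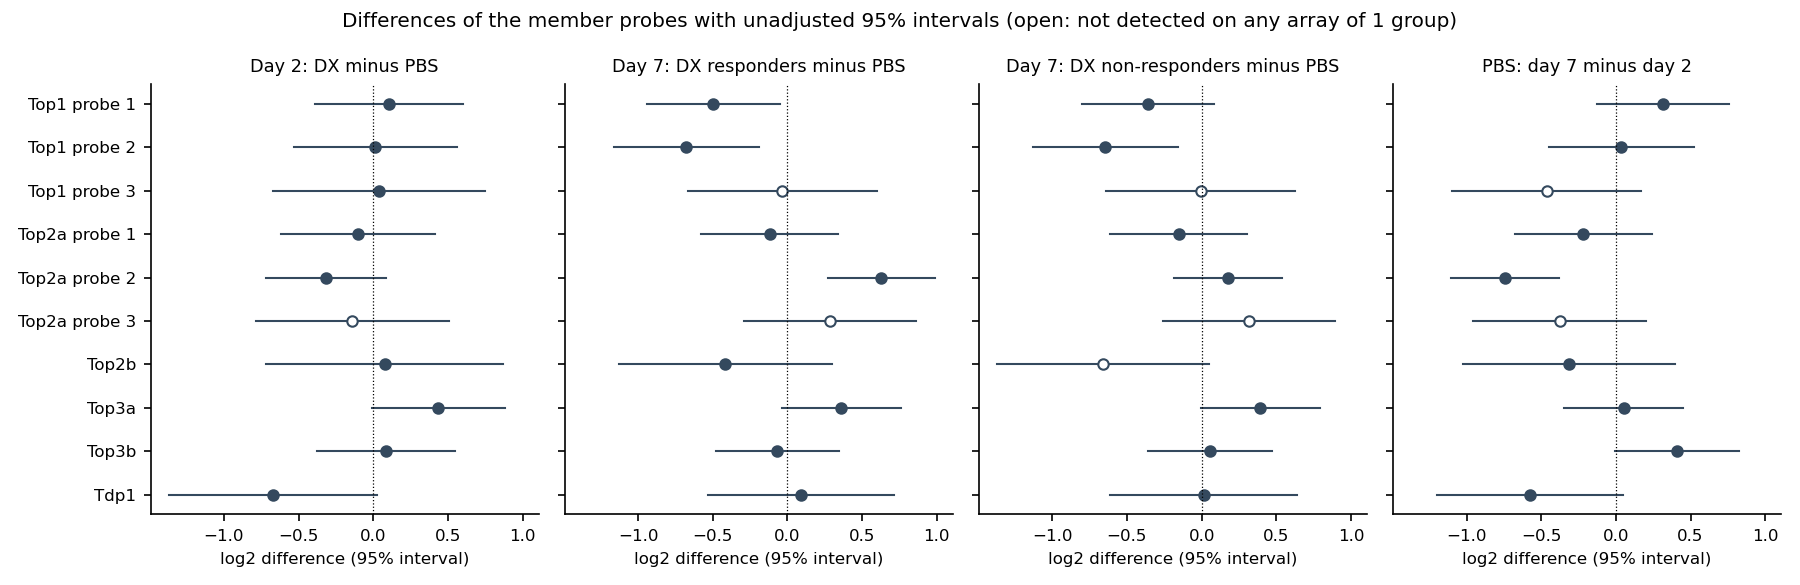
Log2 differences of the 10 member probes (points) with unadjusted 95% intervals (lines) for DX against PBS on day 2, responders and non-responders against PBS on day 7, and day 7 against day 2 in PBS tumours. Open points mark probes not detected on any array of 1 of the groups. The intervals of Top1 probes 1 and 2 lie below 0 for responders, that of the second Top2a probe lies above 0 for responders and below 0 in PBS tumours, and no adjusted p was under 0.05.

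Top3a and Top3b are type IA enzymes. Top3a works with the Blm helicase to dissolve crossed DNA strands, and Top3b works with Tdrd3 and can also act on RNA. Top3a, by the probe ILMN_1249579, was detected on all 17 arrays. Its log2 signal was 6.04 and 6.26 in day 2 DX tumours, against 5.76, 5.55 and 5.83 in day 2 PBS tumours. On day 7 it was 6.21, 6.28 and 5.90 in responders, 6.08, 6.22 and 6.19 in non-responders, and 5.46, 5.97 and 5.87 in PBS tumours. DX lay above PBS without overlap on day 2 and in non-responders, while responder replicate 3 fell in the PBS range.

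The Top3a difference was 0.44 ± 0.21 on day 2 (adjusted p = 0.837 in limma), 0.36 ± 0.19 for responders (adjusted p = 0.417 in limma) and 0.39 ± 0.19 for non-responders (adjusted p = 0.466 in limma), and none passed the threshold. Without day 7 PBS replicates 2 and 3 the day 7 values were 0.67 and 0.71, and with the authors' processed values the 3 values were 0.17, 0.14 and 0.15. Both day 7 comparisons use the same 3 PBS arrays. The effect over all DX tumours of day 7 differed from that of day 2 by -0.06 ± 0.27 (95% interval -0.62 to 0.50). Of all probes 26.8% did not overlap between 2 DX and 3 PBS arrays on day 2, where 2 of the 10 member probes, Top3a and Tdp1, did not. For non-responders against PBS these values were 14.6% of all probes and 3 of 10 member probes. Day 10 responders, at 5.76, 5.85 and 5.88, lay below all day 7 responders, by -0.30 ± 0.19 (adjusted p = 1 in limma), and 7.32% of all probes did not overlap in that comparison.

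Top3b, by the probe ILMN_2432458, was detected on all 17 arrays and showed no gap between DX and PBS. It read 6.73 and 6.45 in day 2 DX tumours, against 6.50, 6.39 and 6.62 in day 2 PBS tumours. On day 7 it read 6.56, 6.99 and 6.98 in responders, 7.13, 6.86 and 6.91 in non-responders, and 6.56, 7.14 and 7.04 in PBS tumours. DX and PBS overlapped on both days, and day 10 responders, at 6.89, 6.72 and 7.23, overlapped the day 7 groups. Among PBS tumours the difference of day 7 from day 2 was 0.41 ± 0.20 (adjusted p = 0.354 in limma). Without day 7 PBS replicates 2 and 3 it was 0.06, and within the 2 BeadChips that held both days it was 0.59 and 0.06. The 4 later groups had means between 6.84 and 6.97, against 6.59 and 6.50 in day 2 DX and PBS tumours. The largest step in that order, 0.26 between day 7 responders and day 2 DX, was just above the pooled SD of 0.22. Its other probe, ILMN_1228175, was not detected on any array.

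Tdp1, which removes stalled Top1 from the end of a broken strand, was detected on 13 of 17 arrays by the probe ILMN_1222101. On day 2 it read 5.39 and 5.53 in DX tumours, against 6.17, 6.09 and 6.13 in PBS tumours. Both DX arrays lay below all 3 PBS arrays, and the difference was -0.67 ± 0.33 (adjusted p = 0.841 in limma). The 3 PBS arrays lay closely together (SD 0.04), but the test takes its spread from all 6 groups, where the pooled SD was 0.40. On day 7 it read 5.94, 5.10 and 5.90 in responders, 4.80, 6.04 and 5.87 in non-responders, and 5.79, 5.54 and 5.35 in PBS tumours. These groups overlapped, with differences of 0.09 ± 0.30 and 0.01 ± 0.30 from PBS (adjusted p = 0.922 and 0.993 in limma). Day 10 responders, at 5.83, 5.22 and 5.95, overlapped those of day 7. In PBS tumours the difference of day 7 from day 2 was -0.57 ± 0.30 (adjusted p = 0.394 in limma).

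Tdp2, which frees DNA ends from trapped type II enzymes and so acts on the DX lesion itself, was not detected on any of the 17 arrays. Its only probe, ILMN_2514218, read between 4.27 and 4.77, and no statement on the gene can be made. The second Tdp1 probe, ILMN_2584445, was not detected on any array either.

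Genes that act with the topoisomerases were given from lists, by their brightest probe. Of their measured genes 0 were called in each of the 6 lists and 8 comparisons. The relatives of the topoisomerases were Top1mt, the mitochondrial enzyme, Spo11, the meiotic cutter, Topbp1, a scaffold of the replication checkpoint, and Topors, a Top1-binding ubiquitin and SUMO ligase. Their median difference was -0.21 on day 2, against -0.02 over all probes, and -0.02 for responders against PBS, against 0.00 over all probes. Topbp1 differed by 0.54 ± 0.25 in responders (adjusted p = 0.36 in limma).

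The repair of trapped complexes was measured by 12 of 18 genes. Of these 6 had a positive difference on day 2, 8 in responders and 7 in non-responders against PBS, with medians of -0.02, 0.06 and 0.05. Wrn, a helicase of the RecQ family, differed by 0.46 ± 0.19 in responders (adjusted p = 0.296 in limma) and 0.52 ± 0.19 in non-responders (adjusted p = 0.329 in limma). End joining and break signalling was measured by 12 of 17 genes, with medians of 0.02, -0.06 and -0.05. Atm, the kinase that signals double-strand breaks, differed by 0.46 ± 0.14 in responders (adjusted p = 0.155 in limma) and 0.38 ± 0.14 in non-responders (adjusted p = 0.334 in limma). Nhej1, an end-joining factor, differed by -0.41 ± 0.21 and -0.55 ± 0.21 (adjusted p = 0.4 and 0.348 in limma).

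Among 6 measured partners of the type IA enzymes the medians were 0.10 on day 2, 0.15 in responders and 0.15 in non-responders. Blm, the helicase partner of Top3a, differed by 0.15 ± 0.19, 0.18 ± 0.17 and 0.27 ± 0.17. Tdrd3, the partner of Top3b, differed by -0.33 ± 0.16, 0.11 ± 0.14 and -0.02 ± 0.14. The smallest adjusted p in limma among these 6 values of Blm and Tdrd3 was 0.583. Other partners had the smallest p of the list, Fancm on day 2 and in non-responders and Fxr1 in responders. An unadjusted p under 0.05 in limma was reached by 2, 0 and 1 of the 6 partners. Over all probes the shares were 6.07%, 13.5% and 10.9%. The p53 targets, 16 of 20 measured, answer to DNA damage. Cdkn1a, the cell cycle inhibitor p21, differed by 0.96 ± 0.25 on day 2 (adjusted p = 0.127 in limma) and 0.69 ± 0.22 in responders (adjusted p = 0.183 in limma), and Mdm2, the ubiquitin ligase of p53, by 0.07 ± 0.14 on day 2 and 0.43 ± 0.12 in responders (adjusted p = 0.13 in limma). The list median was 0.07 on day 2, 0.00 in responders and 0.10 in non-responders, with 11, 9 and 10 of 16 positive. At an unadjusted p under 0.05 in limma the list counted 1, 4 and 5 of 16, against 6.07%, 13.5% and 10.9% of all probes. The smallest p were those of Mdm2, Cdkn1a and Sesn2 in responders and of Sesn2, Mdm2 and Fas in non-responders. Between responders and non-responders the count was 0 of 16, against 5.65% of all probes.

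**Figure D5:**
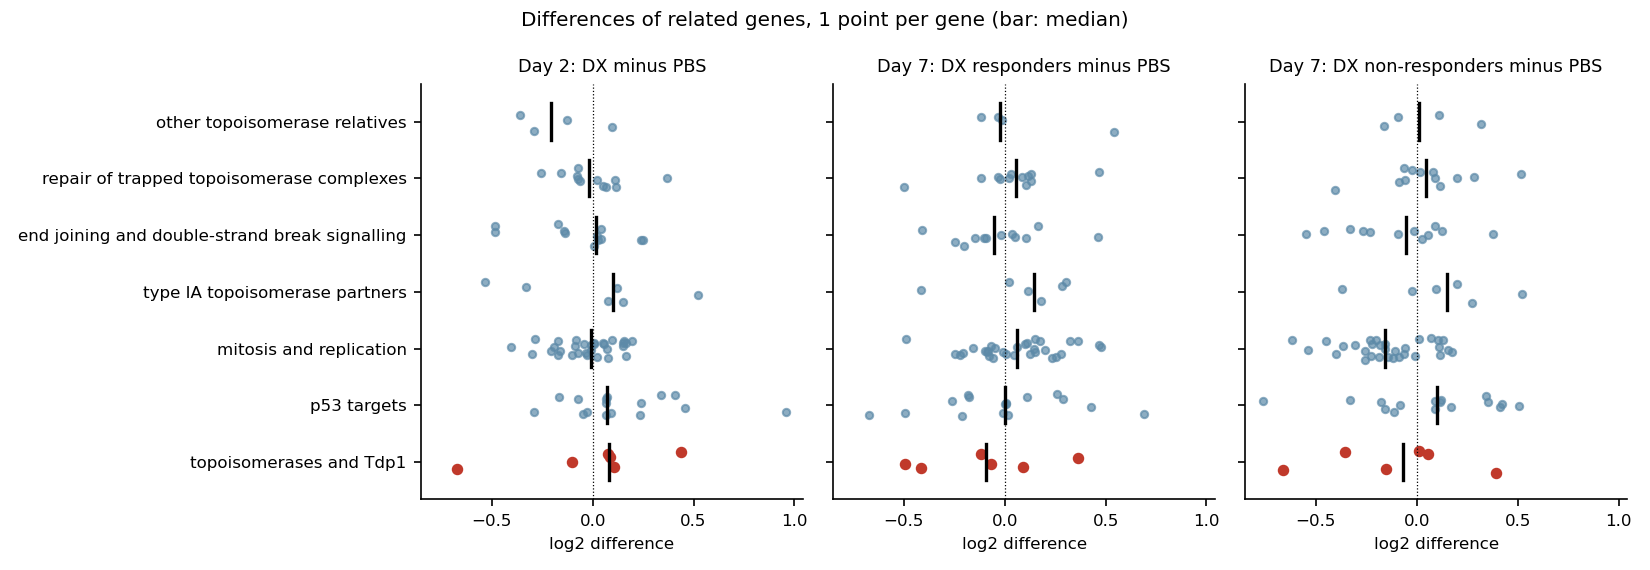
Log2 differences of the genes of 6 lists (blue, 1 point per gene) and of the 6 measured topoisomerase and Tdp genes by their brightest probe (red) for DX against PBS on day 2 and for responders and non-responders on day 7, with the median as a bar. List medians lie between -0.21 and 0.15, and no gene was called.

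Mitosis and replication genes, with which Top2a is known to be expressed, were measured by 31 of 38 members. Between day 7 responders and non-responders 29 of 31 had a positive difference, with a median of 0.21 against 0.00 over all probes, and 0 were called. Against PBS 18 of 31 were positive in responders (median 0.06) and 8 of 31 in non-responders (median -0.16). Birc5 (survivin, of the chromosomal passenger complex) differed by 0.41 ± 0.11 (adjusted p = 0.68 in limma), and Nusap1, a spindle protein, by 0.41 ± 0.14 (adjusted p = 0.751 in limma). Over the same arrays the brightest Top2a probe differed by 0.04 ± 0.22 and the second by 0.45 ± 0.17. Between day 7 and day 2 PBS tumours 3 of 31 were positive, with a median of -0.20. Rrm1, a ribonucleotide reductase subunit, differed there by -0.46 ± 0.11 (adjusted p = 0.0575 in limma). In that comparison the brightest Top2a probe differed by -0.22 ± 0.22 and the second by -0.74 ± 0.17.

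Over the 17 arrays the brightest Top2a probe correlated with the 31 mitosis genes with a median r of 0.20, highest for Mcm3, and the second with a median r of 0.35, highest for Mcm5. Both were positive with 25 of 31 genes, and single genes ranged from -0.436 to 0.794 and from -0.249 to 0.755. Over all symbols the median r of these Top2a probes was -0.045 and -0.001. With the mitosis genes the median r was -0.03 for the brightest Top1 probe, 0.18 for the second, -0.11 for Top3a and -0.39 for Top3b. Over all symbols these were -0.036, -0.063, 0.011 and 0.032. These are descriptions over arrays that share groups, BeadChips and tissue make-up.

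The genes whose brightest probe followed a member most closely over the 17 arrays, of 10034 compared, are given by Pearson r. For the brightest Top2a probe they were Ube2v1 (r = 0.87), Lmf2, Cdca5, Rfwd3 and Tubb4b (r = 0.817), of which Cdca5 (sororin) holds sister chromatids together. For the second Top2a probe they were Fanca (r = 0.906), Xist, Ciita, Prrc2c and Rbm28 (r = 0.839). The 2 sets had no gene in common. For the brightest Top1 probe they were Abhd17b (r = 0.882), Capza1, Cd81, St3gal2 and Phc2 (r = 0.807), and for the second Mdh1 (r = 0.884), Hnrnpf, Tra2b, Vdac3 and Ect2 (r = 0.81). For Top3a they were D730003I15Rik (r = 0.768), Vgll3, Lamb2, Rtf2 and 1810062O18Rik (r = 0.716), and for Top3b Syf2 (r = 0.905), Blcap, Rgmb, Dctn3 and Wbp2 (r = 0.86).

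Markers of other cells moved with the same groups. T and NK cell genes had a mean log2 signal of 7.18 to 7.68 in day 7 responders, 6.51 to 7.24 in non-responders and 6.36 to 7.08 in PBS tumours, and Klrd1 and Nkg7 were called higher in responders than in PBS tumours (2 of 6 measured), as was Thy1 of the matrix list. That list otherwise read lower, with 1 of 8 positive and a median of -0.31 for responders against PBS and -0.40 for responders against non-responders. The macrophage genes were at 8.68 to 9.27 in responders, 8.67 to 8.96 in non-responders and 9.23 to 9.47 in PBS tumours, with 0 of 7 called. On day 2 the 3 measured globin genes were called lower in DX tumours, where the list mean was 5.99 to 6.72, against 8.68 to 9.82 in PBS tumours. On day 7 the list mean was 9.90 to 10.66 in responders, 8.99 to 11.22 in non-responders and 8.68 to 9.19 in PBS tumours, with a median difference of 1.34 for responders and 0 of 3 called. All 3 were called higher in the DX effect of day 7 minus that of day 2. Skeletal muscle genes were at 5.71 to 11.56 in day 7 responders, with 0 of 12 called. The part of these cells in the values of the topoisomerases was not tested.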

How the data were processed

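Per the file headers, the authors deposited a signal intensity and a detection p-value for each probe and array, before normalization. A second deposited table, with 1 column for each of the 17 arrays, held intensity processed by the authors and served as an alternative. The submitters' processing notes name GenomeStudio 2011.1, with settings not given in the sources used here. From the deposited signals log2 values were made with neqc (limma 3.58.1, R 4.3.3, offset 16), which corrects background and equalises quantiles, and the offset draws differences of dim probes towards 0. Of 45281 probes, 34885 had 1 symbol, 18 several and 10378 none. Kept were 17674 probes detected (p-value under 0.01) on 2 or more arrays, and the brightest kept probe by mean stood for a gene.

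All 17 arrays entered 1 limma fit with a mean per group (6) and a trended variance (11 residual degrees of freedom), with Benjamini-Hochberg adjustment over all kept probes within each of 8 comparisons and a threshold of 0.05. The Top2a minus Top2b difference had an exact permutation test. Groups, replicate numbers and BeadChips came from the labels. Most same-numbered arrays of different groups did not deviate together (8 of 40 pairs had a correlation over 0.1, range -0.219 to 0.51). The numbers were therefore not taken as pairs. The pair at 0.51 was replicate 3 of day 7 and of day 10 responders, the muscle-rich arrays, which shared a BeadChip. No 2 arrays were identical. The number of arrays limits the precision. Named were all members, up to 3 genes of smallest p (or 4 called) from a list and comparison, and the 5 genes most like each fully detected member. The members, the lists and this rule were chosen with earlier results of these data known. Alternatives covered the normalization, the filter, BeadChip and replicate blocks, array weights, and arrays left out. Probe and protein sequences were not used here.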

Additional observations from a re-analysis of the deposited data

Results flagged for a closer look

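The estimated DX effect had opposite signs on the 2 days for the brightest Top1 probe and for the second Top2a probe. On day 2 DX and PBS tumours overlapped for both probes. Their day 2 intervals, -0.39 to 0.60 for the Top1 probe and -0.72 to 0.09 for the Top2a probe, held both signs. For the brightest Top1 probe it was -0.50 in day 7 responders and 0.10 on day 2, a gap of -0.60 on the log2 scale, and in day 7 non-responders it was -0.36, a gap of -0.46. For the second Top2a probe it was 0.63 in day 7 responders and -0.31 on day 2, a gap of 0.94. These gaps were not tested as such. The PBS mean of the second Top2a probe fell from 8.49 on day 2 to 7.75 on day 7. Its mean was 8.18 in day 2 DX tumours and 8.38 in day 7 responders. For the brightest Top1 probe the PBS mean rose from 7.66 to 7.98. Its mean was 7.77 in day 2 DX tumours, 7.48 in responders and 7.62 in non-responders. The brightest Top2a probe differed by -0.10 on day 2 and -0.12 in day 7 responders. The tested difference over all DX tumours of day 7 was -0.53 ± 0.30 for the Top1 probe (adjusted p = 0.685 in limma) and 0.72 ± 0.24 for the Top2a probe (adjusted p = 0.393 in limma). The values of other cell types beside these groups are given with the results, and their part was not tested.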

How the results depend on the processing

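Under 30 alternatives, 17 of which left out 1 array, the count of called topoisomerase and Tdp genes stayed at 0 in all 8 comparisons. Of 2360 probe differences recomputed under 28 to 30 alternatives each, 143 took the other sign, none of them of a called value, and 5 were called. All 5 were the second Top2a probe in day 7 against day 2 PBS tumours, with adjusted p in limma of 0.0469 (BeadChip as a random block), 0.02 (array weights), 0.0418 (without day 2 PBS replicate 2), 0.0353 (without non-responder replicate 1) and 0.0407 (without day 10 replicate 2). Without day 7 PBS replicates 2 and 3, which leaves 1 array assumed to vary like the other groups, it was -0.54. The Top2a minus Top2b difference without the muscle-rich array was -0.0147 for responders against PBS. Leaving out 1 array at a time, it ranged from -0.84 to 0.48 on day 2 and from -0.0375 to 0.74 for responders against PBS. Both ranges held the other sign at 1 end, and the cause was not tested. For the 3 comparisons with non-responders the computed values are listed without a reading, since Top2b was not detected on any non-responder array. They ranged from -0.52 to 0.26 for responders against non-responders. Against PBS they ranged from 0.04 to 0.96 for non-responders and from 0.07 to 0.85 for all DX tumours. No direction or size is read from these values. No replicate block was fitted to the Top2a minus Top2b difference, which had an exact test.

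With a replicate block, 0 of 80 member differences were called and none moved by more than 0.137, while over all probes 36 were called for responders against PBS (76 without it) and 31 for all DX tumours (55 without it). Probes called over the whole array moved widely: from 51 to 290 on day 2 (10 to 115 with 1 array left out), 0 to 99 for responders (0 to 144), 0 to 27 for non-responders (0 to 60), 0 to 101 for all DX tumours (1 to 210), 0 to 266 for PBS tumours (9 to 174) and 0 to 81 for the difference between the days (1 to 49). With 1 array left out, the lowest came without day 2 DX replicate 1 (day 2 and the difference between the days), responder replicate 1, non-responder replicate 2, day 7 PBS replicate 2 (all DX) and day 2 PBS replicate 1. Among the other alternatives the lowest for responders came with BeadChip as a fixed block. For non-responders, all DX tumours, PBS tumours and the difference between the days it came without day 7 PBS replicates 2 and 3, which leaves 1 array in that group. Groups of 2 or 3 arrays and the offset limit what could be seen in dim probes such as those of Top2b and Tdp1. Over all alternatives the Top2b difference of responders from PBS lay between -0.76 and -0.06, and the Tdp1 difference on day 2 between -0.84 and -0.24.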
